A study of Homo sapiens with 2 samples.

Results

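The 10 genes described here are the transcription factor SRF, its actin-sensing coactivator MRTFA, and 8 genes of the contractile and actin-binding apparatus that the SRF literature counts among its targets (ACTA2, TAGLN, CNN1, CNN2, MYL9, TPM1, TPM2 and CALD1). The rule lists them by name and uses no measured value, and they are 10 of the 41582 genes with a symbol in the table and hold 69 of its 177816 transcripts. RNA was sequenced from U87, an established human glioblastoma cell line that the labels call wild type, after either DMSO, the vehicle control, or the curcumin analog CCA-1.1 for 72 h. Both groups were the same line in RPMI with serum, and each group was 1 library, so the differences cannot be set against replicate spread and carry no p-values. The comparison asks how the transcripts of the cells differed between CCA-1.1 and the vehicle. The dose given to the sequenced cells is not stated in the sources used here.

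SRF binds a short DNA element, the CArG box, as a dimer, and its output depends on the partner it recruits. MRTFA and its relative MRTFB are held in the cytoplasm by monomeric actin and enter the nucleus when actin is drawn into filaments, where they turn on genes of the cytoskeleton. Ternary complex factors of the ELK family, phosphorylated by ERK, share SRF with them and turn on immediate early genes. In smooth muscle and in myofibroblasts the MRTF arm builds the contractile apparatus.

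The promoters that follow are shown because the CArG box is the feature by which these genes are tied to SRF. They come from RefSeq on GRCh38.p14, run 5′ to 3′ on the strand of the gene, and end at the base before the transcription start. Capitals mark a CArG box, or, for ACTA2, the same element with 1 letter of its A/T core replaced by C or G.

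SRF, chr6:43171019-43171268, plus strand: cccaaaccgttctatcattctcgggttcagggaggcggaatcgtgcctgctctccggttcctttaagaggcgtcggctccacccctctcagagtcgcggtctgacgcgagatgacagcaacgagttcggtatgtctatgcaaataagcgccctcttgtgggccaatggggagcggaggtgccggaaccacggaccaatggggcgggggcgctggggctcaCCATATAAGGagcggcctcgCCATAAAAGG
CNN2, chr19:1026358-1026607, plus strand: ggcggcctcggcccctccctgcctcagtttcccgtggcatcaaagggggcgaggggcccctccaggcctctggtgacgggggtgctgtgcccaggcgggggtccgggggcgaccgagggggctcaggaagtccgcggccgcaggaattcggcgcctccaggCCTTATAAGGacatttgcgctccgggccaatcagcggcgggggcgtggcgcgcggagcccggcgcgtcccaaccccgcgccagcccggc
ACTA2, chr10:88952774-88953023, minus strand: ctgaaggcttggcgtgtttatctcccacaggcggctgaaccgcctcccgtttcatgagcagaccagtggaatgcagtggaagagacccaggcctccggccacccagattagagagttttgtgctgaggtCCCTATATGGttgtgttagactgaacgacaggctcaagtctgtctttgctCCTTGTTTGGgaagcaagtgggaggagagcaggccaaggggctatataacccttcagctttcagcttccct

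Of the 10 genes, 8 matched a promoter, with 16 promoters between them, and TAGLN and MYL9 did not match. The search covered 250 bases before to 50 bases after each start, and since the CArG box reads the same on both strands, 1 pass covered both. SRF had 2 CArG boxes, at 30 to 21 and at 10 to 1 bases before 1 of its 2 starts, and CNN2 had 1, at 89 to 80 bases before its start. Over all 35116 promoters of RefSeq, 1.29% held a CArG box and 11 held 2 or more. ACTA2 had 2 of the near matches, at 121 to 112 and at 71 to 62 bases before 1 of its 2 starts, and CALD1 had 1, at 26 to 17 bases before 1 of its 4 starts. With near matches counted, 4 of the 16 promoters held a match, against 8.13% of all promoters. Of the other MRTF-SRF target genes described below, 6 of 17 with a promoter held a CArG box, and of the ELK target genes 2 of 8 did, against 1.6% of the 27305 genes with a promoter. A match is a description of the letters, not a measured binding site. CNN1, TPM1, TPM2 and MRTFA had neither kind of match in these windows.

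The authors' values are TPM, a unit already corrected for transcript length and library size, so levels of different genes can be set side by side, while the read depth of the libraries is unknown. The values of a gene are the sums over its transcripts, and where a pair of values is given, the DMSO library comes first. Differences are log2((TPM + 1) in CCA-1.1 / (TPM + 1) in DMSO), a scale that understates changes of low genes, and a difference past 1 in either direction is called 2-fold. None of the 10 genes was past 2-fold, where 1.89% of the 15485 genes averaging 1 TPM or more were higher in CCA-1.1 and 1.67% were lower. None was past 1.2-fold either, where 15.5% of those genes were higher and 9.3% lower. CNN1 lay below the minimum of 1 TPM, so 9 of the 10 stand among those 15485 genes. The 10 differences ran from -0.15 for CNN1 to 0.19 for TAGLN, with 4 genes higher and 6 lower in the CCA-1.1 library. Their median was -0.06, beside 0.03 over the 15485 genes and 0.0039 over the 7906 protein-coding genes averaging 10 TPM or more. Their median absolute difference was 0.084, beside 0.138 over the 15485 genes and 0.106 over the 7906 protein-coding genes. TPM gives each gene as a part of its library, so it holds neither the number of cells nor the total RNA per cell. In a bulk sample, a change in the share of cells that carry a transcript and a change in its amount per cell cannot be told apart.

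SRF (Entrez identifier 6722), the DNA-binding factor, spans 43171269 to 43181506 on chromosome 6 (GRCh38.p14). It stood at 33.6 TPM with DMSO and 34.2 TPM with CCA-1.1. The difference of 0.02 was the smallest of the 10, and 9.28% of the 15485 genes had a smaller absolute difference. MRTFA (57591; chromosome 22, 40410289 to 40636719), the coactivator that reads the pool of free actin, measured 10.1 TPM with DMSO against 9.43 TPM with CCA-1.1 (difference -0.09). Both regulators were thus present in both libraries, SRF at over 3 times the TPM of MRTFA.

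TPM1 (7168; chromosome 15, 63042747 to 63071915) encodes tropomyosin 1, which lies along actin filaments and sets access of other proteins to them, and it was the highest of the 10 genes. It measured 269.2 TPM with DMSO against 257.2 TPM with CCA-1.1 (difference -0.07). TPM2 (7169; chromosome 9, 35681993 to 35690056), which encodes the beta tropomyosin, measured 126.5 TPM with DMSO against 133.7 TPM with CCA-1.1 (difference 0.08). The difference had opposite signs in these paralogs, and both lay between -0.29 and 0.31, the 5th and 95th percentiles for the 7906 protein-coding genes. All 10 genes lay in that range, but MRTFA (mean 9.76 TPM), TAGLN (3.64 TPM) and CNN1 (0.595 TPM) averaged less than the 10 TPM asked of that set. The place of CNN1 depended on the pseudocount, since without one its log2 ratio was -0.42.

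MYL9 (10398; chromosome 20, 36541519 to 36551447) encodes a regulatory light chain of non-muscle and smooth muscle myosin, whose phosphorylation switches on contraction. It stood at 186.1 TPM with DMSO and 168.7 TPM with CCA-1.1, a value lower by 9.32% and a difference of -0.14. CALD1 (800; chromosome 7, 134711499 to 134970729) encodes caldesmon, which binds actin and tropomyosin and restrains the myosin ATPase. It measured 131.6 TPM with DMSO against 125.0 TPM with CCA-1.1 (difference -0.07). CNN2 (1265; chromosome 19, 1026608 to 1039065) encodes calponin 2, the calponin of many non-muscle cells, and measured 137.7 TPM with DMSO against 132.2 TPM with CCA-1.1 (difference -0.06). All 3 values were lower with CCA-1.1, and the share of the 15485 genes with a smaller absolute difference was 50.8% for MYL9, 29.3% for CALD1 and 23.7% for CNN2.

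ACTA2 (59; chromosome 10, 88935074 to 88991337), the alpha actin of smooth muscle and the usual marker of myofibroblasts, measured 22.2 TPM with DMSO against 24.3 TPM with CCA-1.1 (difference 0.12). TAGLN (6876; chromosome 11, 117199294 to 117207465), which encodes the actin-bundling protein transgelin or SM22, stood at 3.34 TPM with DMSO and 3.94 TPM with CCA-1.1. Its difference of 0.19 was the largest of the 10, and 62.0% of the 15485 genes had a smaller absolute difference. CNN1 (1264; chromosome 19, 11538851 to 11550323), the calponin of differentiated smooth muscle, measured 0.68 TPM with DMSO against 0.51 TPM with CCA-1.1 (difference -0.15). CNN1 was below 1 TPM in both libraries, and its value came from 1 predicted transcript, XM_005259741.3, while its 3 curated transcripts were listed at 0 in both. The pseudocount decides how large CNN1 looks, since without one its log2 ratio was -0.42, past 1.2-fold.

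**Figure D1:**
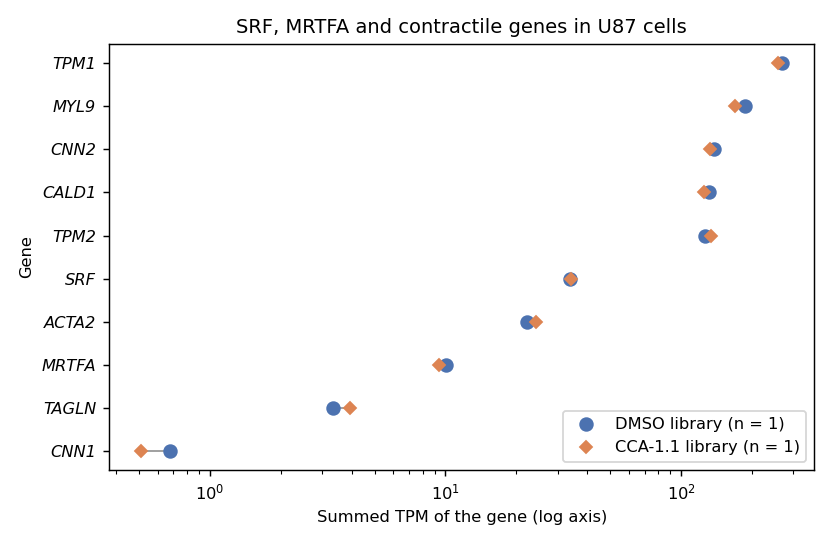
Summed TPM of each gene (horizontal, log axis) with DMSO (circles) and with CCA-1.1 (diamonds), 1 library each, with genes ordered by their DMSO level. The order runs from TPM1 at 269.2 and 257.2 TPM to CNN1 at 0.68 and 0.51 TPM, and the pair of points of each gene lies close together.

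The levels stood in 3 sets that did not overlap in either library. TPM1, MYL9, CNN2, CALD1 and TPM2 lay between 125.0 and 269.2 TPM, SRF, ACTA2 and MRTFA between 9.43 and 34.2 TPM, and TAGLN and CNN1 at or below 3.94 TPM. In the DMSO library CNN2 (137.7 TPM), CALD1 (131.6 TPM) and TPM2 (126.5 TPM) followed each other, and in the CCA-1.1 library TPM2 (133.7 TPM) came before CNN2 (132.2 TPM) and CALD1 (125.0 TPM). With 1 library per group, the order of these 3 neighbours has no error to be judged against. TPM1 was higher than 96.6% of the 15485 genes in both libraries, and TAGLN was higher than 22.8% of them in DMSO and 24.6% in CCA-1.1. The 10 genes summed to 921.0 TPM with DMSO and to 889.2 TPM with CCA-1.1.

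**Figure D2:**
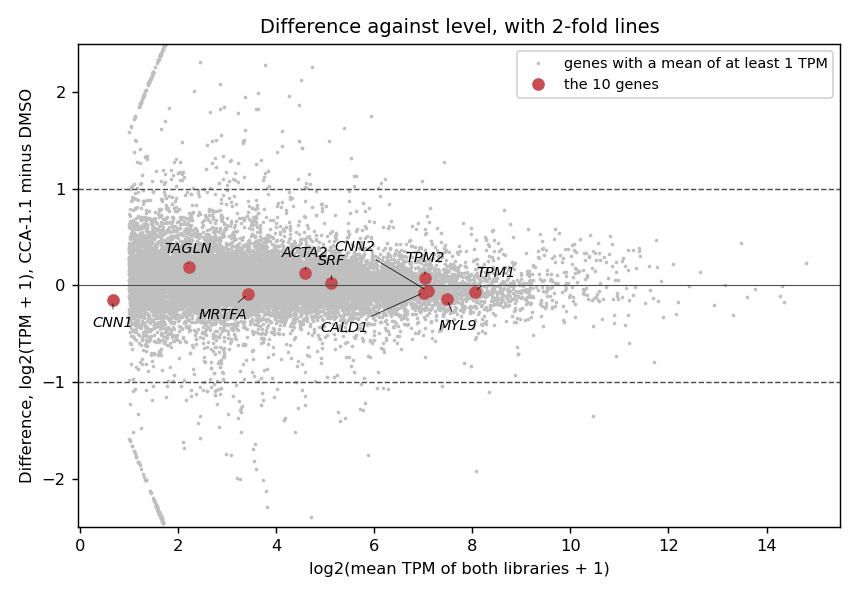
Difference on the log2(TPM + 1) scale, CCA-1.1 minus DMSO (vertical), against log2 of the mean TPM + 1 (horizontal) for the 15485 genes averaging 1 TPM or more (grey points) and for the 10 genes (red points), with dashed lines at 2-fold. The 10 genes lie between -0.15 and 0.19, all but CNN1 inside the grey cloud, and 128 grey genes lie beyond the axis limit of 2.5. CNN1, with a mean below 1 TPM, lies to the left of the grey points.

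At the level of single transcripts, 29 of the 69 transcripts averaged 1 TPM or more, and 18 were listed at 0 in both libraries. Of the 29 transcripts averaging 1 TPM or more, 1 was higher past 2-fold in CCA-1.1 and 1 was lower, which is 3.45% each way, beside 3.66% higher and 3.38% lower among all 34503 transcripts at that level. Where a read fits several transcripts, Kallisto estimates which one it came from, and these values are therefore not independent of each other.

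The transcript higher past 2-fold belonged to SRF. NM_001292001.2 measured 6.07 TPM with DMSO against 13.8 TPM with CCA-1.1 (difference 1.07), and made up 18.0% of the TPM of SRF in DMSO and 40.4% in CCA-1.1. NM_003131.4, the main transcript of SRF in both libraries, measured 26.3 TPM with DMSO against 19.9 TPM with CCA-1.1 (difference -0.38), and its share was 78.2% and 58.3%. The gain of one and the loss of the other left the sum of SRF nearly level. Counted as the sum of all gains in share, 22.4 percentage points of the TPM of SRF changed transcript between the libraries. Over the 6736 genes that averaged 10 TPM or more and had at least 2 transcripts above 0, the median of this measure was 5.80 points, and 92.6% of them had less than SRF. Whether the estimates of Kallisto exchanged reads between these transcripts was not tested.

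The transcript lower past 2-fold belonged to TPM1. NM_001018005.2, which encodes the striated muscle form of tropomyosin 1, measured 5.07 TPM with DMSO against 0.06 TPM with CCA-1.1 (difference -2.52). It made up 1.88% of the TPM of TPM1 in DMSO and 0.023% in CCA-1.1. Whether the estimates of Kallisto exchanged reads between the transcripts of TPM1 was not tested. NM_001018006.2 made up 69.9% and 71.8% of the gene, at 188.2 TPM with DMSO and 184.6 TPM with CCA-1.1, a difference of -0.03. Next came NM_001018004.2, at 26.3 and 25.2 TPM, and NM_001330344.2, at 20.8 TPM with DMSO and 13.8 TPM with CCA-1.1. NM_001018020.2 was higher in CCA-1.1, at 6.91 and 11.3 TPM, and NM_001018007.2 was lower, at 5.07 and 3.09 TPM. NM_001365781.2 was at 6.90 and 8.73 TPM and NM_001365782.1 at 6.19 and 6.74 TPM. The table lists 20 transcripts of TPM1, 17 of them above 0 in at least 1 library, and 5.58 percentage points of its TPM changed transcript, more than in 48.6% of the 6736 genes.

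In MRTFA, the main transcript NM_020831.6 stood at 8.40 TPM with DMSO and 6.69 TPM with CCA-1.1, and its share of the gene was 83.3% and 70.9%. The remaining transcripts of MRTFA with a value above 0 were each at 1.53 TPM or less and each higher in CCA-1.1. In ACTA2, NM_001613.4 stood at 12.7 TPM with DMSO and 12.8 TPM with CCA-1.1, and NM_001141945.2 was at 8.56 and 11.1 TPM. The difference of ACTA2 as a gene thus lay in NM_001141945.2. Matching by versioned identifier keeps NM_001613.4 as the sole transcript of ACTA2, and the difference of the gene is then 0.01.

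In CALD1, NM_004342.7 stood at 86.7 TPM with DMSO and 78.9 TPM with CCA-1.1, and NM_033140.4 was at 42.3 and 43.9 TPM. In CNN2, NM_004368.4 held 86.2% of the gene in DMSO and 88.2% in CCA-1.1, and NM_201277.3 was at 14.9 and 10.9 TPM. In MYL9, NM_006097.5 stood at 160.7 TPM with DMSO and 143.2 TPM with CCA-1.1, and NM_181526.3 was at 25.4 and 25.6 TPM. The lower value of MYL9 thus lay in its main transcript. In TPM2, the predicted transcript XM_047423827.1 was the highest, at 59.0 and 63.0 TPM, followed by NM_213674.1 at 40.0 and 37.1 TPM and NM_001301226.2 at 20.9 and 25.2 TPM. The predicted XM_017015088.3 was at 3.26 and 5.61 TPM, and with curated transcripts alone the difference of TPM2 was 0.02. TAGLN had 1 transcript above 0, NM_001001522.2.

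Most of the contractile genes have paralogs, and 5 families were compared by their summed TPM. Among the tropomyosins, TPM4, the short form common in non-muscle cells, held 68.2% of the summed TPM in DMSO and 66.5% in CCA-1.1, at 1466 and 1322 TPM. TPM1 held 12.5% and 12.9%, TPM2 held 5.89% and 6.72%, and TPM3, at 287.6 and 275.4 TPM, held the rest. Among the calponins, CNN2 held 73.3% and 74.8% and CNN3, at 49.6 and 43.9 TPM, nearly all of the remainder, while CNN1 held 0.36% and 0.29%.

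TAGLN was a small part of its family. TAGLN2, at 343.0 TPM with DMSO and 337.3 TPM with CCA-1.1, held 98.8% and 98.8% of the transgelin TPM, and TAGLN held 0.96% and 1.15%. The neuronal TAGLN3 was at 0.74 and 0.33 TPM. ACTA2 held 0.36% of the summed TPM of the 6 actins in DMSO and 0.39% in CCA-1.1, where the cytoplasmic actins ACTG1 (3603 and 3721 TPM) and ACTB (2572 and 2401 TPM) made up nearly all. Of the muscle actins, ACTC1, the cardiac actin, was at 1.13 and 2.07 TPM, ACTA1 at 0.37 and 0.52 TPM and ACTG2 at 0.36 and 0.30 TPM. Actins are closely related, and how far reads were shared between them was not tested, so the low values of ACTA1, ACTC1 and ACTG2 are uncertain. MYL9 held 6.10% of the summed TPM of 5 myosin light chain genes in DMSO and 5.89% in CCA-1.1. MYL6, an essential light chain, was at 1370.7 and 1244 TPM, MYL12A at 689.4 and 718.2 TPM, MYL12B at 572.6 and 528.1 TPM and MYL6B at 233.3 and 205.2 TPM. Of the 14 paralogs, 11 averaged 1 TPM or more, of which 1, ACTC1, was higher past 1.2-fold and none was lower. Over the 15485 genes, 15.5% were higher past 1.2-fold and 9.3% lower. The median difference of these 11 paralogs was -0.10, beside 0.03 over the 15485 genes.

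Of the 7 cofactors and partners of SRF, 6 averaged 1 TPM or more, none was past 1.2-fold, where 15.5% of all genes were higher and 9.3% lower, and the median difference was 0.07. MRTFB, the relative of MRTFA, stood at 14.6 TPM with DMSO and 15.3 TPM with CCA-1.1, above MRTFA in both. Myocardin (MYOCD), the coactivator found in heart and smooth muscle, was at 0.07 and 0.06 TPM. The difference was lowest for ELK3, a ternary complex factor, at 25.0 and 21.7 TPM (-0.20), and highest for its relative ELK4, at 34.3 and 37.6 TPM (0.13).

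Of the 18 other MRTF-SRF target genes, all averaged 1 TPM or more. By 2-fold, 1 was higher and none was lower, where 1.89% of the 15485 genes were higher and 1.67% lower. By 1.2-fold, 1 was higher and 3 were lower, where 15.5% of those genes were higher and 9.3% lower. The median difference of the list was -0.07, beside 0.03 over the 15485 genes. The gene higher past 2-fold was ANKRD1, which encodes a stretch-responsive ankyrin repeat protein, at 14.8 TPM with DMSO and 31.0 TPM with CCA-1.1 (1.02). The 3 lower genes were ARHGAP5, which encodes a GTPase-activating protein, at 11.5 and 7.62 TPM (-0.54), FILIP1L at 7.72 and 5.40 TPM (-0.45), and CCN2, a matricellular protein gene also known as CTGF, at 142.1 and 112.9 TPM (-0.33). The remaining 14 genes ran from -0.25 to 0.11. Among genes averaging 10 TPM or more, the median of this list was 0.00086.

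Of the 10 ELK target genes, 9 averaged 1 TPM or more and none was past 1.2-fold in either direction. Among all 15485 genes, 15.5% were higher past 1.2-fold and 9.3% lower. The median difference of the 9 genes was -0.15. JUNB, an AP-1 subunit, had the lowest difference, -0.26, at 176.0 TPM with DMSO and 146.9 TPM with CCA-1.1. EGR2, a zinc finger immediate early gene, had the highest, 0.10, at 12.4 and 13.3 TPM. The sign of this median depended on the transcripts counted, since it was 0.04 with curated transcripts alone, and no test of a list was run.

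The line was checked against its markers. VIM, the intermediate filament gene of mesenchymal cells, stood at 3217 TPM with DMSO and 3106 TPM with CCA-1.1, and CD44 at 607.4 and 472.6 TPM (-0.36), while of the astroglial markers GFAP was below 1 TPM and S100B was listed at 0 in both. NES was at 7.53 and 7.62 TPM and SOX2 at 1.87 and 1.45 TPM (-0.23). Of these 7 markers, 5 averaged 1 TPM or more, with a median difference of -0.05. OLIG2, at 5.64 and 7.03 TPM, was the 1 marker higher past 1.2-fold, and CD44 was the 1 marker lower. Over the 15485 genes, 15.5% were higher past 1.2-fold and 9.3% lower, which is also the background for the marker lists that follow. Of the 8 late smooth muscle markers, 4 averaged 1 TPM or more and none was past 1.2-fold, with a median of -0.05. MYH11, the myosin heavy chain that defines smooth muscle, was at 0.10 TPM and listed at 0, and of the 4 genes averaging 1 TPM or more SMTN had the highest difference, at 33.2 and 35.0 TPM (0.08), and MYLK the lowest, at 72.2 and 66.2 TPM (-0.12). Of the 8 markers of other cell types, 5 averaged 1 TPM or more, with RGS5 (2.54 and 4.22 TPM) and RBFOX3 (1.83 and 2.45 TPM) higher past 1.2-fold and CD68 (494.2 and 397.1 TPM) lower. Of the others, SYP was at 47.4 and 43.2 TPM and PECAM1 at 3.41 and 2.71 TPM, and PTPRC, VWF and EPCAM were below 1 TPM in both libraries. Both libraries were made from cultures of U87 cells, and where the transcripts of these markers came from was not tested.

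Several of the 10 genes overlap another gene, and the sources used here do not say whether reads were assigned by strand. ACTA2 overlaps FAS, at 12.5 TPM with DMSO and 10.3 TPM with CCA-1.1, and the antisense ACTA2-AS1, at 0.14 and 0.06 TPM. TAGLN overlaps PCSK7, at 6.94 and 5.64 TPM, and LOC100652768, at 2.92 and 2.54 TPM, so that each of these was lower in CCA-1.1 where TAGLN was higher. TPM1-AS was at 1.06 and 0.99 TPM beside TPM1 at 269.2 and 257.2 TPM, and SGSM3, which overlaps MRTFA, was at 23.0 and 25.6 TPM. Exchange of reads between these neighbours was not tested.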

How the data were processed

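RNA of U87 cells was enriched for mRNA and sequenced on an Illumina instrument by the authors, who checked reads with FastQC 0.11.9 and MultiQC 1.1 and quantified transcripts with Kallisto, naming GRCh38.p14 as the reference. The deposited values are TPM with 2 decimals, 1 column per library. The unit follows from the methods and from the column sums, and TPM keeps no read depth, so no counting interval is given. Transcripts were matched to RefSeq genes of GRCh38.p14 with versions ignored (169966 of 177816), and TPM was summed per gene. The pseudocount was 1 TPM and, outside the 10 genes, the minimum mean was 1 TPM. No test was run with 1 library per group. The study's own criterion also used a p-value, whose test needs counts.

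The 10 genes, the lists and the rules were chosen with earlier results of these data known. Named were the 10 genes, their transcripts at 5 TPM or more or past 2-fold at a mean of at least 1 TPM, and all paralogs. In each other list, the genes past 1.2-fold and those with the highest and lowest difference were named. Further genes are background, cell type markers or marked. No gene was sought with a like pattern, since over 2 libraries likeness has no meaning. One gene list is not reported here. The 2-fold call was checked on simulated data for genes averaging 10 TPM or more. That check did not cover the 1.2-fold call, lower genes, transcript shares or list medians. Alternatives were other pseudocounts, median-ratio scaling, curated transcripts, a minimum of 10 TPM and versioned identifiers. Python 3.11.15, numpy 2.4.6, pandas 2.3.3 and matplotlib 3.10.9 were used.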

Additional observations from a re-analysis of the deposited data

How the results depend on the processing

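Of 268 values recomputed for 41 results, 242 stayed within the SD of the 7906 protein-coding genes (0.196, log2) or, for counts, within 1.5 times, and 26 moved further. That SD was larger than every difference of the 10 genes, which ran from -0.154 to 0.187. A gene's difference could thus fall to 0 and still be counted among the 242, so this count does not measure how stable small differences were. The medians of 2 lists changed sign, the ELK targets from -0.15 to 0.04 with curated transcripts only and the other MRTF-SRF targets from -0.07 to 0.00086 with a minimum mean of 10 TPM. With a pseudocount of 0.1 or 0.01 TPM or with none, 1 of the 10 genes was past 1.2-fold, CNN1, at -0.35, -0.41 and -0.42, and none was past 2-fold. Under the same settings 1 ELK target gene was lower past 1.2-fold, and NM_001018005.2 of TPM1 was at -5.01, -6.18 and -6.40. Those settings also raised the lower calls past 1.2-fold from 1 to 2 in the line markers and in the markers of other cell types. With a minimum mean of 10 TPM, 0 transcripts of the 10 genes were past 2-fold either way, and 1 gene of the other MRTF-SRF targets was lower past 1.2-fold, since fewer features were counted. Median-ratio scaling (factor 1.003) changed no count of calls. With curated transcripts only, CNN1 was at 0 in both libraries and 7 of the 10 genes kept their place in the order of levels in CCA-1.1. No paired analysis was possible because neither group held more than 1 library, and for the same reason no library could be left out. The absence of read depth limits every value near 0.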
